A study of Mus musculus with 9 samples.

Results

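The genes described here are 9 that glucocorticoid hormone is known to induce in muscle and other tissues (Fkbp5, Tsc22d3, Klf9, Klf15, Sgk1, Zbtb16, Mt1, Mt2 and Cebpd) and the gene of the hormone's receptor, Nr3c1. The list was set by gene name, with earlier results of these data known, and makes up 10 of the 24062 gene symbols in the count table. All 10 had enough counts to be tested. Their transcripts were counted by RNA sequencing in whole gastrocnemius, a muscle of the calf with several fibre types, from 3-month-old mice with a background strain of 129Sve/C57BL/6 mix. The study had 9 libraries, 3 of each genotype. One genotype was wild type (WT), and the others were heterozygous for the L1002P allele (hetL1002P) or the X753 allele (hetX753) of Bub1b. Bub1b encodes BubR1, a protein of the spindle assembly checkpoint, and the series concerns alleles linked to mosaic variegated aneuploidy. Both carriers thus have a wild-type allele beside the altered one. The labels name no drug or hormone treatment and give neither the hour of collection nor whether each library had its own animal. The question put to these genes is whether either allele alters their level in muscle, and whether the alleles differ.

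Glucocorticoids (corticosterone in the mouse) cross the cell membrane and bind the receptor that Nr3c1 encodes, which is held ready by Hsp90 and its co-chaperones. The loaded receptor moves to the nucleus and binds DNA at glucocorticoid response elements, which are inverted repeats of a half-site. In muscle the hormone is known to shift metabolism towards protein breakdown, amino acid catabolism and fat use, and its level in blood follows the time of day and rises with stress and fasting. The genes it induces include a brake on the receptor itself (Fkbp5), transcription factors (Klf9, Klf15, Zbtb16, Cebpd), a mediator of its anti-inflammatory action (Tsc22d3), a kinase (Sgk1) and the metal-binding metallothioneins (Mt1, Mt2).

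Library totals ran from 19768149 to 33977252 counted reads. The counts of Bub1b itself were 11 to 21 (WT), 2 to 10 (hetL1002P) and 5 to 8 (hetX753), too few to check single libraries against their labels. As a check of the tissue label, 14 defining muscle genes, such as Acta1 and Ckm, were summed in CPM (counts scaled to a library of 1000000). Their sum was 283100 to 320500 CPM in WT, 247600 to 283000 in hetL1002P and 236700 to 257700 in hetX753. It was thus lower in every carrier library than in any WT library. The part of this difference in the levels of the genes below was not tested. WT 3 (-47.5) and hetL1002P 3 (-32.5) stood apart from the other 7 libraries (-9.52 to 28.9) on principal component 1, which held 39.7% of the variance. Levels also shifted with transcript length from library to library, with a slope per doubling of exon length of -0.23 on the log2 scale in WT 3, -0.07 in WT 2 and -0.02 in WT 1, of -0.10 to 0.14 in hetL1002P and of 0.02 to 0.11 in hetX753. All 3 WT slopes thus lay below all 3 hetX753 slopes, and the values of Klf9 and Nr3c1 below are given with and without this trend.

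None of the 10 genes passed edgeR's test in the fit of all 9 libraries, between any pair of genotypes, while 2 alternatives each called Klf9. In hetX753 against WT, 0 of 10 were called at an adjusted p of 0.05 by edgeR's quasi-likelihood test, where 0.508% of all genes tested were called, and limma-voom also called 0 (0.423% of all genes). DESeq2 called 1 (5.15% of all genes), Klf9, which was also the 1 gene with an unadjusted edgeR p under 0.05, against 20.9% of all genes. In hetL1002P against WT, 0 of 10 were called by edgeR, DESeq2 and limma-voom, beside 0%, 0.0167% and 0.0154% of all genes, and the 1 gene with an unadjusted p under 0.05 was again Klf9 (7.96% of all genes). With the replicate number as a block and the hetX753 libraries left out, edgeR called 1 of 10 in hetL1002P, Klf9, beside 5.01% of all genes. Between the carriers, 0 of 10 were called by each of these tools, 0 had an unadjusted p under 0.05 (8.24% of all genes), and edgeR, DESeq2 and limma-voom called 0.115%, 0.933% and 0.123% of all genes. Counted by library, 2 of 10 genes, Klf9 and Nr3c1, had all 3 hetX753 libraries above all 3 WT libraries, which held for 16.7% of all genes (32.5% in either direction). In hetL1002P against WT and between the carriers 0 of 10 were free of overlap, against 9.44% and 14.4% of all genes. The joint edgeR test over all genotypes called 0 of 10, against 0.216% of all genes. At an unadjusted p under 0.05 it had 1 gene, Klf9 (adjusted p = 0.305), against 14% of all genes. The median log2 fold change of the 10 genes was -0.08 in hetX753 against WT, where that of all genes tested was 0.00, and -0.29 in hetL1002P against WT, where it was 0.01. Both carriers were compared with the same WT libraries, so these medians are not independent of each other. In whole tissue, fewer cells of a type and less RNA per cell cannot be told apart.

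**Figure D1:**
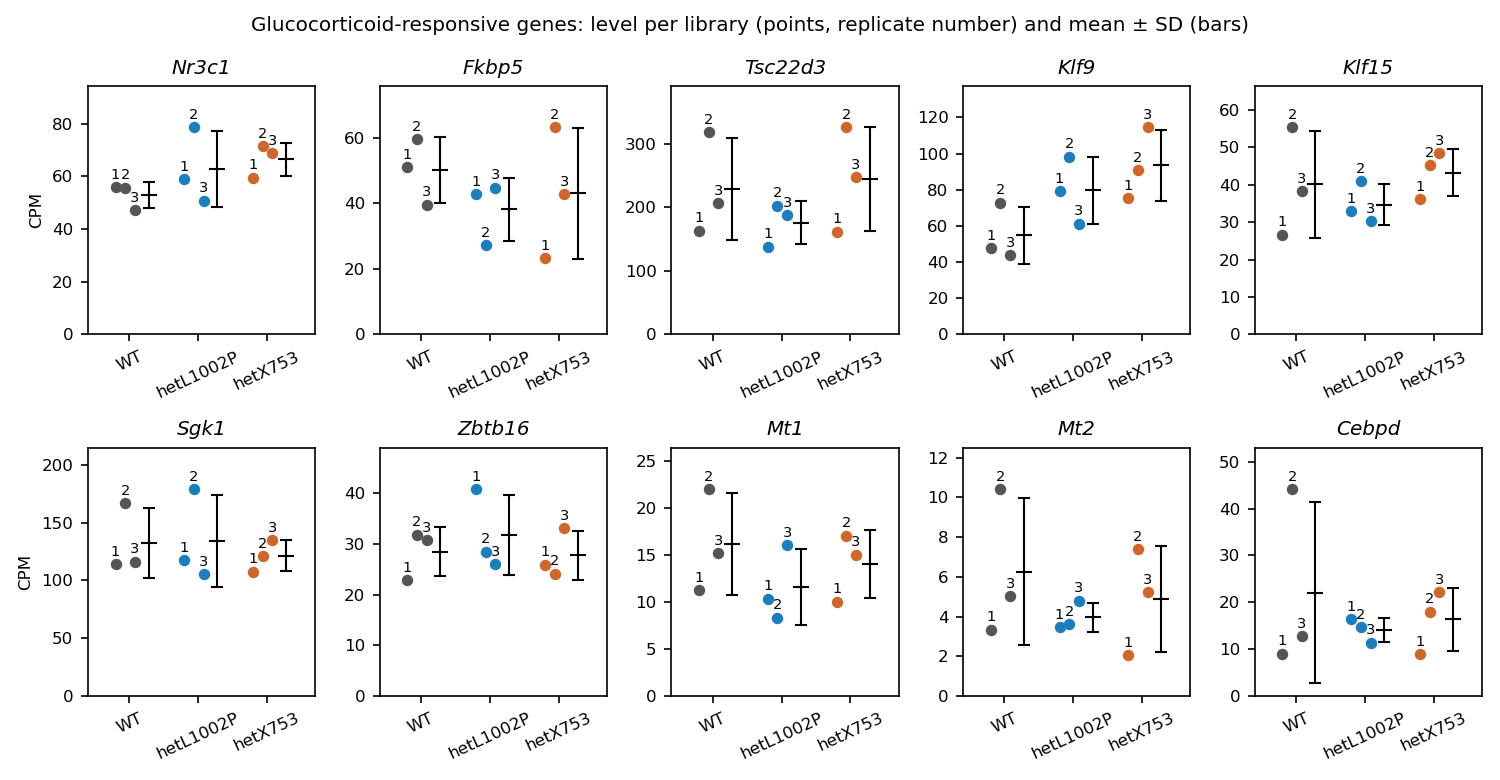
Level of each gene in CPM (vertical axis, from 0) by genotype, with a point and replicate number for each library and the mean ± SD of 3 libraries beside them. In 9 of the 10 panels WT 2 is the highest WT library, and in Klf9 all 3 hetX753 libraries lie above all 3 WT libraries.

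Exon length was taken as the union of all annotated exons of a gene, which can exceed the transcript made. For Mt1 it was 1246 bases, the whole span of the gene. The order below thus depends on the annotation. Per kilobase of exon, Tsc22d3 stood highest, at 49.9 ± 15.5 CPM per kb (mean ± SD over the 9 libraries). Sgk1 followed at 26.4 ± 5.40, and Klf9 at 15.8 ± 4.80. Klf15 (14.1 ± 3.28), Mt1 (11.2 ± 3.47), Mt2 (8.57 ± 4.29) and Nr3c1 (7.90 ± 1.33) came next in CPM per kb. Zbtb16 (5.55 ± 1.05), Cebpd (4.67 ± 2.91) and Fkbp5 (4.62 ± 1.39) stood lowest. Neighbours in this order lay closer together than the SD of either over the libraries, except that Tsc22d3 and Sgk1, Sgk1 and Klf9, and Nr3c1 and Zbtb16 lay further apart than both SDs. All 10 genes were thus transcribed in this muscle, and the gene with the fewest reads, Mt2, had 57 to 202 reads per library.

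Nr3c1, on the minus strand of chromosome 18, encodes the glucocorticoid receptor, a ligand-activated transcription factor. Its level was 56.0, 55.7 and 47.1 CPM in WT 1, 2 and 3. In hetL1002P it was 58.9, 78.5 and 50.8 CPM, and in hetX753 59.4, 71.3 and 68.7 CPM. The hetX753 libraries all lay above the WT libraries, while the hetL1002P libraries overlapped WT. The receptor gene stood 1.26-fold higher in hetX753 (log2 0.33, SE 0.16, 95% interval 0.984 to 1.60-fold, edgeR adjusted p = 0.263) and 1.19-fold higher in hetL1002P (log2 0.25, SE 0.16, interval 0.929 to 1.51-fold, adjusted p = 0.591). Neither passed. With each library's length and GC trend taken out, the log2 fold changes were 0.12 and 0.04. Without hetL1002P 2 the hetL1002P value was also 0.04. Nr3c1 has 7.68 kb of exon and a GC content of 42.2%, the lowest of the 10 genes, and the part of that trend in its levels was not tested further. Of the 10 genes it varied least within a genotype, with an SD of 0.22 on the log2 scale, against a median of 0.22 over the 11549 genes averaging at least 1 CPM.

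Klf9, on chromosome 19 from 23141226 to 23168134 (GRCm38, plus strand), encodes a Krüppel-like zinc finger factor that is induced by glucocorticoid and thyroid hormone and also follows the circadian clock. Its level was 47.7, 72.9 and 43.8 CPM in the WT libraries, 79.2, 98.3 and 61.3 CPM in those of hetL1002P and 75.5, 91.0 and 114.5 CPM in those of hetX753. All 3 hetX753 libraries and 2 of 3 hetL1002P libraries lay above the highest WT library, WT 2, and hetL1002P 3 lay below it. At least 5 of 6 carrier libraries lay above all WT libraries in 13.9% of all genes tested, and among the 10 genes here in Klf9 and Nr3c1. The mean level was 54.8 ± 15.8 CPM in WT, 79.6 ± 18.5 in hetL1002P and 93.6 ± 19.6 in hetX753 (SD, n = 3). This made Klf9 1.71-fold higher in hetX753 (log2 0.77, SE 0.23, 95% interval 1.198 to 2.44-fold), with an unadjusted p of 0.00694 and an adjusted p of 0.136 by edgeR, and it ranked 663rd of 12989 genes by p. In hetL1002P it was 1.46-fold higher (log2 0.54, SE 0.23, interval 1.02 to 2.07-fold), with an unadjusted p of 0.0402 and an adjusted p of 0.579 by edgeR. Between the carriers it was 1.18-fold higher in hetX753, within an interval of 0.826 to 1.67-fold.

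Whether Klf9 was called depended on the fit. DESeq2, which called 625 genes in that comparison, called it in hetX753 (adjusted p = 0.0371) at a similar log2 fold change of 0.76. When only WT and hetL1002P were fitted, with a block for the replicate number, edgeR called it in hetL1002P (log2 0.54, adjusted p = 0.0289), as 1 of 635 genes called over the whole table. When the length and GC trend was removed in the same fit, 5 genes were called and the adjusted p of Klf9 was 0.0921. With that trend removed and no block, the log2 fold change was 0.72 in hetX753 (adjusted p = 0.129) and 0.48 in hetL1002P (adjusted p = 0.808). In all 22 alternatives Klf9 stood above WT in both carriers, with log2 fold changes from 0.60 to 1.03 in hetX753 and from 0.35 to 0.80 in hetL1002P, and it was called in 1 of the 22 in each carrier. The lowest value in hetX753 came from the fit without hetX753 3, and the highest from that without WT 2.

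**Figure D2:**
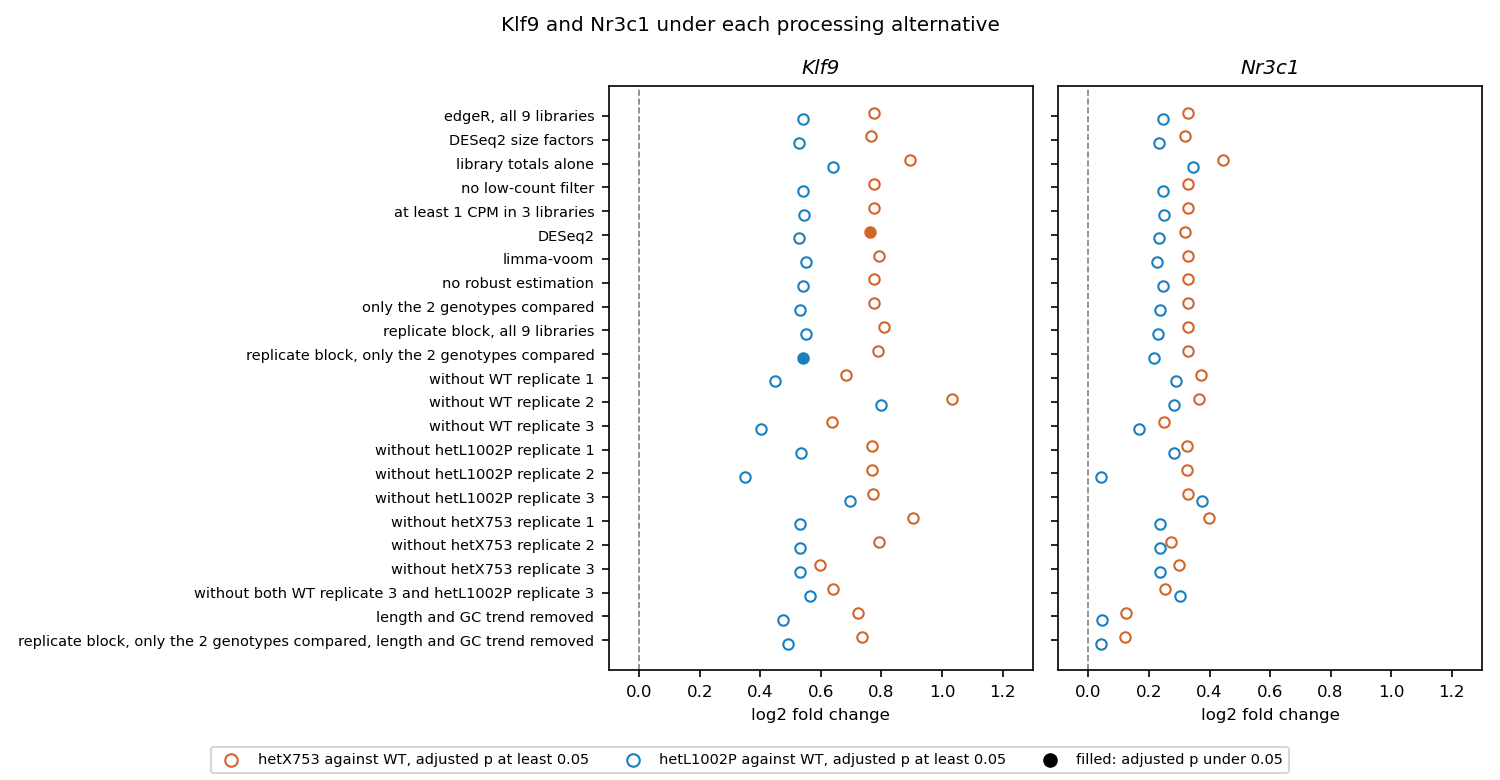
Log2 fold change against WT (horizontal axis) of Klf9 and Nr3c1 in the fit of all 9 libraries and in each of 22 alternatives (vertical axis), with hetX753 in orange, hetL1002P in blue and filled points where the adjusted p was under 0.05. All points lie above 0, 2 Klf9 points are filled, and the Nr3c1 points move to 0.12 and 0.04 when the length and GC trend is taken out.

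Klf15, on chromosome 6 from 90462576 to 90475238 (plus strand), encodes a factor that switches on branched-chain amino acid catabolism and lipid use in muscle. Its level was 26.7, 55.3 and 38.2 CPM in WT, 33.0, 40.9 and 30.2 CPM in hetL1002P and 36.1, 45.1 and 48.4 CPM in hetX753. The WT libraries alone spanned 2.07-fold, and all 6 carrier libraries fell inside that span. Against WT, Klf15 stood at log2 0.11 in hetX753 (SE 0.23, interval 0.756 to 1.54-fold, edgeR adjusted p = 0.805) and at -0.20 in hetL1002P (SE 0.23, interval 0.607 to 1.24-fold, adjusted p = 0.733). Without WT 1 the hetX753 value turned to -0.11, and without WT 2 the hetL1002P value turned to 0.10.

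Zbtb16, on chromosome 9 from 48654297 to 48836222 (minus strand), encodes the zinc finger repressor PLZF. It lay at 22.9, 31.9 and 30.7 CPM in WT, 40.9, 28.5 and 26.0 CPM in hetL1002P and 25.9, 24.1 and 33.1 CPM in hetX753. The genotypes overlapped, and hetL1002P 1 was the highest library of the 9. The log2 fold changes against WT were -0.04 in hetX753 (interval 0.720 to 1.32-fold) and 0.16 in hetL1002P (interval 0.826 to 1.51-fold).

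Cebpd, on chromosome 16 from 15887286 to 15891031 (plus strand), encodes a C/EBP transcription factor of the acute phase response and early fat cell differentiation. It varied more within a genotype than any other gene of the 10. Its level was 9.03, 44.2 and 12.8 CPM in WT, so that WT 2 stood 4.90-fold above WT 1, with 16.4, 14.7 and 11.3 CPM in hetL1002P and 8.95, 18.0 and 22.2 CPM in hetX753. WT 2 was above all 8 other libraries. The log2 fold change was -0.42 in hetX753 (SE 0.53) and -0.62 in hetL1002P (SE 0.53), with edgeR adjusted p of 0.662 and 0.657. Without WT 2 these became 0.59 and 0.38, so the sign of both rested on that library. Exons of Cebpd overlap those of Spidr on the other strand, and since the library kit does not mark strand, its counts may include reads of that gene.

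Fkbp5, on chromosome 17 from 28399094 to 28517527 (minus strand), encodes the immunophilin FKBP51, which joins the receptor complex, lowers its affinity for hormone and so closes a feedback loop. It is widely used as a readout of receptor activity. Its level was 51.0, 59.6 and 39.5 CPM in WT, 42.7, 27.2 and 44.7 CPM in hetL1002P and 23.3, 63.1 and 42.7 CPM in hetX753. The lowest and the highest library of all 9 were both hetX753, 2.71-fold apart, and WT lay between them. The log2 fold change was -0.22 in hetX753 (SE 0.31, interval 0.531 to 1.39-fold, edgeR adjusted p = 0.708) and -0.39 in hetL1002P (SE 0.32, interval 0.470 to 1.24-fold, adjusted p = 0.644). Without hetX753 1, the lowest library, the hetX753 value was 0.08.

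Tsc22d3, on chromosome X from 140539528 to 140600659 (minus strand), encodes GILZ, the glucocorticoid-induced leucine zipper protein that restrains inflammatory transcription factors. It was the most abundant of the 10 genes, at 162.9, 318.2 and 206.4 CPM in WT. In hetL1002P it stood at 138.0, 202.5 and 187.2 CPM, and in hetX753 at 161.7, 325.5 and 247.5 CPM. The WT and hetX753 libraries covered nearly the same range, and all 3 hetL1002P libraries lay below WT 3. The log2 fold change was 0.10 in hetX753 (SE 0.28, interval 0.693 to 1.65-fold, edgeR adjusted p = 0.866) and -0.38 in hetL1002P (SE 0.28, interval 0.497 to 1.19-fold, adjusted p = 0.622). Between the carriers it was 1.39-fold higher in hetX753, with an interval of 0.901 to 2.15-fold and an edgeR adjusted p of 0.732. Without WT 1 or without hetX753 2 the hetX753 value against WT turned to -0.10 and -0.17.

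Sgk1, on chromosome 10 from 21882184 to 21999903 (plus strand), encodes a serum- and glucocorticoid-regulated kinase that acts in parallel to Akt on ion transport and muscle mass. Sequence is shown for this gene because, of the 7 members searched, it was the 1 with an unbroken glucocorticoid response element near a transcript start. The search read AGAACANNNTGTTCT, which is its own reverse complement, in stretches of 300 bases around RefSeq transcript starts (250 before and 50 after, GRCm38.p6). Of 32851 such windows in the genome, 3 held it (0.00913%). Among the members, the search covered the RefSeq windows of 7 of the 10, 14 in all. Nr3c1, whose chromosome was left out, and Zbtb16 and Cebpd were not searched. The match was in 1 of the 6 Sgk1 windows. The half-site AGAACA, read on both strands, was in 19% of all windows, and apart from that window in 2 further Sgk1 windows and 1 of 3 Tsc22d3 windows. The element begins -189 bases from the start site at 21993890, in the 250 bases before it at chr10:21993640-21993889 (plus strand), where capitals mark it.
Sgk1: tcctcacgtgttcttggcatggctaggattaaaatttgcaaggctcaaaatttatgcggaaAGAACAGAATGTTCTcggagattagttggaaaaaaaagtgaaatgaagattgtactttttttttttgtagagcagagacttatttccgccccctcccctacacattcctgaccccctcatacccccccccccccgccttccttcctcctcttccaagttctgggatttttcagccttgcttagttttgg
A match says only that these letters are present. Gene-level counts do not tell which of the Sgk1 starts was used.

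Sgk1 itself stood at 114.2, 167.1 and 116.2 CPM in WT, 117.4, 179.3 and 105.2 CPM in hetL1002P and 107.7, 121.3 and 134.7 CPM in hetX753. The libraries numbered 2 of WT and hetL1002P were the highest of all 9, and the remaining 7 lay between 105.2 and 134.7 CPM. The log2 fold change was -0.13 in hetX753 (SE 0.21, interval 0.661 to 1.27-fold, edgeR adjusted p = 0.749) and 0.02 in hetL1002P (SE 0.21, interval 0.731-fold to 1.4-fold, adjusted p = 0.983).

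The metallothioneins Mt1 and Mt2 are small cysteine-rich proteins that bind zinc and copper and are induced by metals through the factor MTF-1 as well as by glucocorticoid. Their genes are neighbours on the plus strand of chromosome 8, with Mt2 from 94172664 to 94173568 and Mt1 from 94179082 to 94180327. Their upstream sequences are shown because the pair moved together across libraries. Metal response elements, the sites of MTF-1, were searched as TGCACNC or TGCGCNC on both strands. Of all windows of 300 bases, 25.7% hold at least 1, 7.11% at least 2 and 0.517% at least 4, and the share for at least 3 was not computed. The Mt1 window held 3 and the Mt2 window 4, and capitals mark those in the stretch before the earlier of each gene's RefSeq and GENCODE starts, at chr8:94178839-94179081 for Mt1 and chr8:94172368-94172617 for Mt2 (both plus strand, GRCm38.p6, RefSeq windows). The coordinates of the genes above are from GENCODE, and the RefSeq starts are 94179089 for Mt1 and 94172618 for Mt2. The other elements, at 94179091 and 94179109 for Mt1 and 94172622 for Mt2, lie after the RefSeq start and are not shown.
Mt1: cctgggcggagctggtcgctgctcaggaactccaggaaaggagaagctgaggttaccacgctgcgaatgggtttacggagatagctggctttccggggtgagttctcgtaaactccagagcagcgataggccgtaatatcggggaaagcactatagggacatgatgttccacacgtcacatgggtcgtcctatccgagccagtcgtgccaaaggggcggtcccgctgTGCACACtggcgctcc
Mt2: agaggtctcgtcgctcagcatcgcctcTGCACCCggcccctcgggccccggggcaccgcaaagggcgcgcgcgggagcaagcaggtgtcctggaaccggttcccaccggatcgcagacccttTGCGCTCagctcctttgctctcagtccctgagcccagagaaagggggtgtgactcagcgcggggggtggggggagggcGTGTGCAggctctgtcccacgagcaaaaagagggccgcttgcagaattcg
No AGAACA half-site was found in either window, which says only that these letters are not in it.

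Mt1 was at 11.2, 22.04 and 15.2 CPM in WT, 10.3, 8.34 and 16.1 CPM in hetL1002P and 10.02, 17.1 and 15.1 CPM in hetX753. Mt2 was at 3.34, 10.4 and 5.03 CPM in WT, 3.46, 3.63 and 4.79 CPM in hetL1002P and 2.05, 7.38 and 5.22 CPM in hetX753. For both genes WT 2 was the highest library of all 9, and within hetX753 library 2 was highest and library 1 lowest. Over the 9 libraries the log2 CPM values of the pair correlated at r = 0.871 (n = 9, libraries that share depth and scaling between the genes), and at 0.789 without WT 2. The number of Mt1 reads for each Mt2 read was lowest in WT 2 (2.11), hetL1002P 2 (2.30) and hetX753 2 (2.31), and highest in hetX753 1 (4.89). The log2 fold changes in hetL1002P were -0.48 for Mt1 (SE 0.30, interval 0.454 to 1.14-fold) and -0.65 for Mt2 (SE 0.47, interval 0.311 to 1.31-fold), with edgeR adjusted p of 0.584 and 0.615. In hetX753 they were -0.20 and -0.35, with adjusted p of 0.721 and 0.685, and without WT 2 they were 0.09 and 0.23. An exon of the antisense gene Gm45774 overlaps Mt2, so that its reads cannot be told apart from those of Mt2. Of the rest of the family, Mt3 had 10 to 48 reads per library and Mt4 a single read in all 9 libraries.

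**Figure D3:**
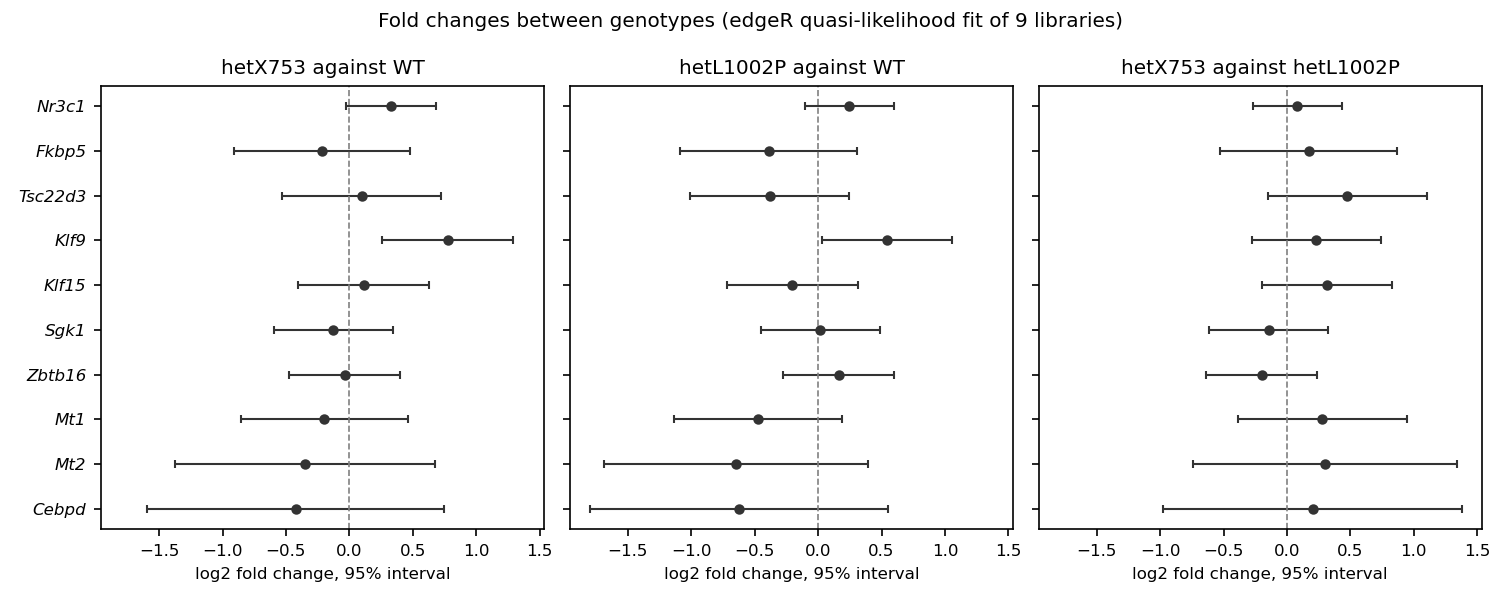
Log2 fold change with its 95% interval (horizontal axis) of each gene (vertical axis) in the 3 comparisons, from the edgeR fit of 9 libraries. The interval of Klf9 lies above 0 in both carriers before adjustment for the number of genes, and that of every other gene includes 0 in all 3 comparisons.

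Libraries of the same genotype differed widely in most of these genes. WT 2 was the highest of the 3 WT libraries in 9 of the 10 genes, where it was highest in 27.1% of all genes tested, and hetX753 1 was the lowest of its genotype in 9 of 10, against 33.1% of all genes. WT 1 was lowest in 7 of 10 (31.1% of all genes). In hetL1002P, library 2 was highest in 5 genes (35.7% of all genes) and library 3 lowest in 6 (44.6%). The median of the 10 deviations from the genotype mean was 0.47 on the log2 scale in WT 2, -0.37 in WT 1 and -0.37 in hetX753 1, while the median over all genes was between -0.02 and 0.01 in each library. The within-genotype SD ranked at the 98.9th percentile of the 11549 genes averaging at least 1 CPM for Cebpd (0.81), at the 98.3rd for Mt2 (0.73), at the 93.5th for Fkbp5 (0.51), at the 91.1st for Mt1 (0.46) and at the 90.1st for Tsc22d3 (0.44).

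**Figure D4:**
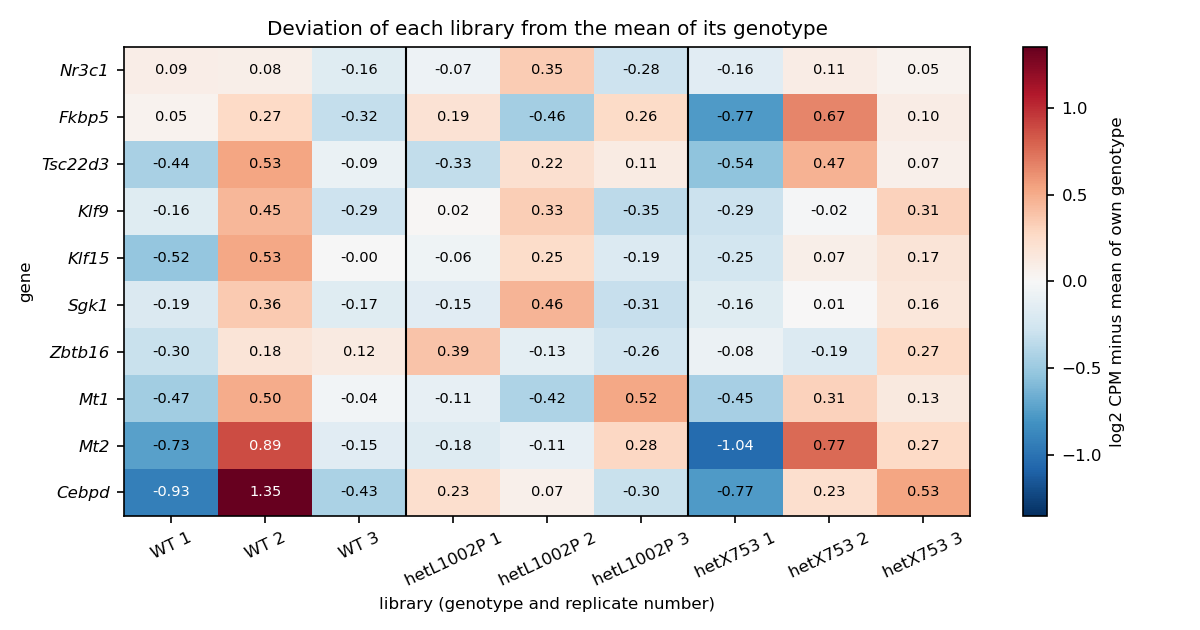
Log2 CPM of each gene (rows) in each library (columns) minus the mean of its own genotype, in colour and as a number. The WT 2 column is above 0 in all 10 genes, up to 1.35 for Cebpd, and the hetX753 1 column is below 0 in all 10, down to -1.04 for Mt2.

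Among the 45 pairs of members, log2 CPM correlated at a median r of 0.43 over the 9 libraries, as a description of values that share libraries and scaling. In 10 pairs r was over 0.7, and in 10 it was below 0. Tsc22d3 went with Mt2 (r = 0.864) and Klf15 (0.823), Klf15 with Cebpd (0.844), Mt2 with Cebpd (0.822), and Fkbp5 with Mt2 (0.789). Without WT 2 these 5 were 0.805, 0.745, 0.766, 0.656 and 0.759. Klf9 and Nr3c1 also went together (r = 0.851), and over the 9 libraries neither followed Fkbp5, at -0.14 for Klf9 and -0.17 for Nr3c1. After the genotype means were taken out, Klf9 and Nr3c1 correlated at 0.750. Klf9 then went most closely with Sgk1 (r = 0.921) and Cebpd (0.826), and Nr3c1 with Sgk1 (0.820). Zbtb16 went most closely with Cebpd, at 0.49 over the 9 libraries and 0.57 after the genotype means were taken out.

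Genes averaging at least 1 CPM were searched for likeness to each member. Gm-number and Rik symbols and the sex-linked genes Xist, Tsix, Ddx3y, Uty, Kdm5d and Eif2s3y were left out. Each r below was picked as the highest of many over the 9 libraries, so it is a description and no test. The 3 genes whose log2 CPM followed each member most closely were as follows. For Nr3c1 they were Ankrd12 (r = 0.969), Arhgap21 (0.962) and Dopey1 (0.954), and for Klf9 Clmn (0.967), Cep85l (0.964) and Vipas39 (0.964). For Tsc22d3 they were Gatsl3 (0.943), Arrdc3 (0.932), itself on the companion list of glucocorticoid-induced genes, and Engase (0.919). Engase also led for Klf15 (0.933), before Slc43a3 (0.932) and Spsb1 (0.924). Mt2 went with Adamtsl2 (0.943), Bcl2l1 (0.941) and Gatsl3 (0.924), Fkbp5 with Fgfrl1 (0.902), Lrg1 (0.892) and Adamtsl2 (0.891), and Mt1 with Max (0.949), Prickle3 (0.945) and Plod3 (0.909). Sgk1 went with Dnm1 (0.955), Igf2bp3 (0.949) and Asb15 (0.945), Cebpd with Chsy1 (0.937), Acer3 (0.932) and Iqsec3 (0.927), and Zbtb16 with Peli1 (0.910), B3galt1 (0.834) and Mta3 (0.828). Gatsl3, Engase and Adamtsl2 thus each appeared beside 2 members.

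The other glucocorticoid-induced genes, a list of 34, held no gene called by edgeR either. Over all genes tested, 50.4% lay above 0 in hetX753 and 51.9% in hetL1002P, and 20.9% and 7.96% had an unadjusted p under 0.05. In hetX753 against WT, edgeR and limma-voom called 0 of 34 and DESeq2 2 (5.15% of all genes). There were 9 at an unadjusted edgeR p under 0.05, and 23 of 34 lay above 0 with a median log2 fold change of 0.17. In hetL1002P against WT, all 3 tools called 0 of 34, with 3 at an unadjusted p under 0.05, and 10 of 34 lay above 0 with a median of -0.16. Angptl4, an inhibitor of lipoprotein lipase, had the smallest joint p (0.00348), with 2.67 ± 1.26 CPM in WT, 1.39 ± 0.738 in hetL1002P and 6.48 ± 3.79 in hetX753 (SD, n = 3), and did not pass (edgeR adjusted p = 0.186 in hetX753 against WT). Pdk4, the kinase that shuts off pyruvate oxidation, was at 210.4 ± 133.8 CPM in WT and 471.8 ± 211.6 CPM in hetX753 (log2 1.17, edgeR adjusted p = 0.217). Angptl4 and Pdk4 are also induced by fatty acids through PPAR receptors. The ubiquitin ligase gene Trim63 stood at log2 -0.47 in hetX753 (edgeR adjusted p = 0.136), and the cell cycle inhibitor gene Cdkn1c at 0.48 (adjusted p = 0.159).

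WT 2 was the highest WT library in 24 of these 34 genes as well, and hetX753 1 the lowest of its genotype in 22 of 34. Of the genes that show it, Per1, Ddit4 and Glul were chosen after their values were seen. The clock gene Per1, which carries a well-known response element for the receptor, was at 12.1, 93.3 and 36.1 CPM in WT, 44.9, 69.6 and 43.3 CPM in hetL1002P and 37.5, 102.4 and 112.0 in hetX753. Ddit4, an inhibitor of mTORC1 signalling, was at 8.31, 49.6 and 7.20 CPM in WT, 8.42, 26.0 and 6.50 CPM in hetL1002P and 9.74, 43.6 and 65.3 in hetX753. Glul, glutamine synthetase, was at 118.9, 439.6 and 286.6 CPM in WT. These 3 genes were chosen for showing this order and so add nothing to the counts of 24 and 22. Of the 34 genes, WT 1 was the highest WT library in 7 and WT 3 in 3. In hetX753, library 2 was lowest in 8 and library 3 in 4. Bcl6, also named after its values were seen, was at 99.8, 49.0 and 51.1 CPM in WT, highest in WT 1.

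Several other measures differed between the same libraries. The sum over 8 slow-fibre genes was 3238 CPM in WT 2, against 874 in WT 1 and 2249 in WT 3, and 3034 in hetX753 2, against 1665 and 1781 in hetX753 1 and 3. In hetL1002P it was 2198, 1230 and 2856 CPM, lowest in library 2, which was highest in 5 of the 10 genes, and highest in library 3, which was lowest in 6. Adipocyte markers (10 of 10 tested, none at 0) summed to 2053 to 2592 CPM in WT. Their sum was 1613 to 2143 CPM in hetL1002P and 1927 to 2900 in hetX753, highest there in hetX753 2, and alike in WT 2 (2592) and WT 3 (2591). Most of it was Car3, at a mean of 1937 CPM, beside 19.4 for Adipoq and 10.5 for Plin1. The sum thus mainly follows Car3 and is no measure of fat content. Car3 and Fabp4 were highest in WT 3 among the WT libraries, and the other markers in WT 2. Adipoq, for example, stood at 16.7, 33.0 and 13.0 CPM in WT 1, 2 and 3. Adipocyte markers above 0 against WT numbered 7 of 10 in hetX753 (median 0.09) and 0 of 10 in hetL1002P (median -0.46). Over all genes tested, 50.4% and 51.9% lay above 0. Macrophage markers (9 of 10 in the table and tested) summed to 72.5 to 121.7 CPM in WT, 67.8 to 135.1 in hetL1002P and 77.8 to 83.1 in hetX753. Of the 9, 0 lay above 0 in hetX753 against WT (median -0.32) and 5 in hetL1002P (median 0.003). Smooth muscle and pericyte markers (10 of 10 tested) summed to 400.3 CPM in hetX753 2, against 261.7 and 290.1 in hetX753 1 and 3. Their sum was 199.1 to 274.4 CPM in WT and 218.7 to 313.9 in hetL1002P. Above 0 against WT lay 10 of 10 in hetX753 (median 0.21) and 7 of 10 in hetL1002P (median 0.18). Fibroblast markers (10 of 10 tested) summed to 882.7 to 1047 CPM in WT, highest in WT 2, 560.3 to 1322 in hetL1002P and 623.3 to 783.7 in hetX753. Of the 10, 0 lay above 0 in hetX753 (median -0.46) and 6 in hetL1002P (median 0.08). Lymphocyte markers (2 of 10 tested) summed to no more than 3.12 CPM in any library, and neutrophil markers (2 of 8 tested) to no more than 2.31 CPM. The part of these lists in the levels of the 10 genes was not tested.

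Of 20 tested chaperones, steroid enzymes and coregulators of the receptor, edgeR and limma-voom called 0 in hetX753 and DESeq2 1 (5.15% of all genes). At an unadjusted edgeR p under 0.05 there were 5 of the 20, against 20.9% of all genes. In hetL1002P all 3 tools called 0, with 2 at an unadjusted p under 0.05, against 7.96% of all genes. The list medians were 0.14 and 0.12. Med1, a subunit of the Mediator complex that joins nuclear receptors to the polymerase, was at log2 0.59 in hetX753 (edgeR adjusted p = 0.0805), the coactivator Ncoa3 at 0.37, the corepressor Ncor1 at 0.54 and the Hsp90 co-chaperone Stip1 at -0.34. Hsd11b1, which regenerates active hormone inside cells and was chosen after its values were seen, was at 5.57 ± 0.781 CPM in WT, 5.94 ± 1.84 in hetL1002P and 5.21 ± 0.568 in hetX753.

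Of 15 genes of amino acid breakdown, several are known targets of Klf15. In hetX753 against WT, edgeR called 1 of the 15 lower (0.177% of all genes tested) and 0 higher. Limma-voom called 1 (0.423% of all genes) and DESeq2 2 (5.15%), with 3 at an unadjusted edgeR p under 0.05 (20.9%). In hetL1002P all 3 tools called 0, with 2 at an unadjusted p under 0.05 (7.96%). Between the carriers DESeq2 called 1 (0.933%) and the other tools 0. Above 0 lay 5 of 15 in hetX753 and 4 in hetL1002P (50.4% and 51.9% of all genes). The gene called by edgeR was Mccc1, a subunit of the leucine-degrading enzyme methylcrotonoyl-CoA carboxylase. It was at 40.6, 41.7 and 38.4 CPM in WT, 39.1, 39.1 and 39.8 CPM in hetL1002P and 25.6, 25.6 and 17.9 CPM in hetX753. All 3 hetX753 libraries lay below all 6 others. The log2 fold change was -0.80 (SE 0.14, edgeR adjusted p = 0.0379), and -0.77 against hetL1002P (adjusted p = 0.0697). The call against WT held in 14 of 22 alternatives and in 2 of the 9 fits without 1 library. It was lost with library totals alone (edgeR adjusted p = 0.0875) and without WT 1 (0.101), WT 2 (0.143), WT 3 (0.097), hetL1002P 1 (0.0732), hetX753 1 (0.0686), hetX753 2 (0.0849) or hetX753 3 (0.095). Klf15 itself did not pass in that comparison, and the list's median was -0.14 in hetX753 and -0.08 in hetL1002P. The transaminase gene Bcat2 stood at -0.27 and -0.35, Ivd, of leucine breakdown, at -0.41 and -0.27, and Got1 at -0.32 and 0.04.

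The remaining lists held no gene called by edgeR or limma-voom in either carrier. Of 11 Krüppel-like factor genes other than Klf9 and Klf15, 10 lay above 0 in hetX753 (median 0.38) and 9 in hetL1002P (median 0.23), where 50.4% and 51.9% of all genes did. At an unadjusted p under 0.05 there were 2 and 0 of the 11, where 20.9% and 7.96% of all genes passed that bound, and DESeq2 called 0. Klf10 was at log2 0.67 in hetX753 and -0.08 in hetL1002P, Klf11 at 0.73 and 0.10, Klf12 at 0.66 and 0.79 and Klf6 at 0.60 and 0.46. In the circadian list, DESeq2 called 4 of 16 in hetX753 and 0 in hetL1002P, against 5.15% and 0.0167% of all genes. At an unadjusted edgeR p under 0.05 there were 6 and 0 of the 16, against 20.9% and 7.96% of all genes. The clock output factor Tef stood at 0.40, Nr1d1, which encodes the repressor REV-ERB alpha, at -0.80 and Per2 at 1.24 in hetX753 (edgeR adjusted p of 0.114, 0.141 and 0.155). Npas2, at a mean of 0.616 CPM, stood at -2.99 (edgeR adjusted p = 0.129).

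Zinc transporters and other metallothioneins (12 tested) had medians of 0.06 in hetX753 and 0.08 in hetL1002P. DESeq2 called 0 in each, against 5.15% and 0.0167% of all genes. At an unadjusted edgeR p under 0.05 there were 2 and 1 of the 12, against 20.9% and 7.96% of all genes. Mt3 stood at log2 -1.15 in hetX753, on few reads, the Golgi zinc transporter gene Slc30a7 at 0.40, Slc39a7 at -0.31 and Slc39a10 at 0.52. Relatives and targets of Sgk1 (9 tested) had medians of -0.07 and 0.13, with 0 called by DESeq2. At an unadjusted edgeR p under 0.05 there were 3 and 2 of the 9, against the same 20.9% and 7.96% of all genes. Among these relatives and targets, the ubiquitin ligase gene Nedd4l, whose protein Sgk1 phosphorylates, stood at -0.37 in hetX753 and 0.29 in hetL1002P. Ndrg2 stood at -0.34 and -0.32, Ndrg3 at -0.39 and -0.15, and Pdpk1, which encodes the kinase that activates Sgk1, at 0.48 and 0.36. Of 13 cytokine and acute phase genes, DESeq2 called 2 in hetX753 (5.15% of all genes) and 0 in hetL1002P (0.0167%). At an unadjusted edgeR p under 0.05 there were 4 and 2 of the 13, against 20.9% and 7.96% of all genes. Junb was at -1.14 and -1.12, the cytokine receptor subunit Il6st at 0.54 and 0.28, and Serpina3n at 1.17 and -0.27. In WT 1, 2 and 3, Junb stood at 28.97, 11.05 and 12.67 CPM. Cish, a feedback inhibitor of growth hormone and cytokine signalling, was at -0.48 and 2.44. Its hetL1002P libraries stood at 64.64, 2.55 and 35.35 CPM (SE 0.94, edgeR adjusted p = 0.58), against 2.46 to 12.86 CPM in WT.

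**Figure D5:**
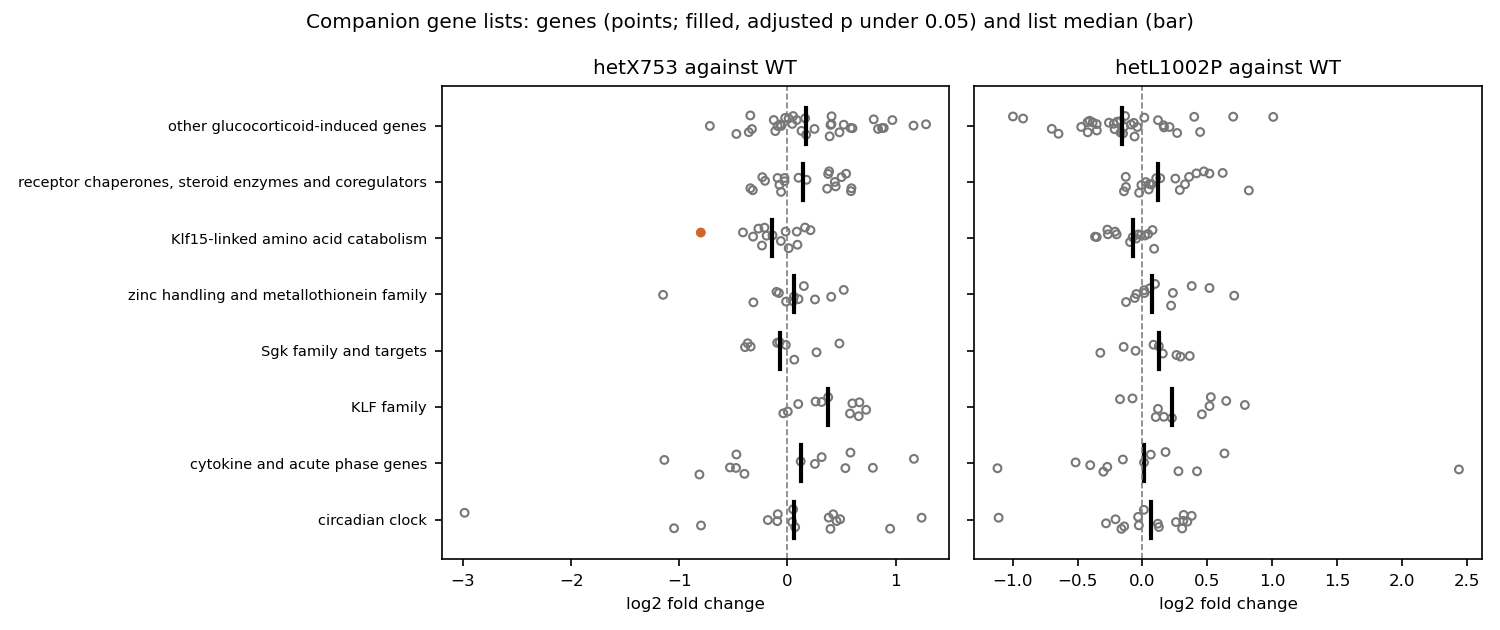
Log2 fold change against WT (horizontal axis) of each tested gene of 8 companion lists (rows) in hetX753 and hetL1002P, with a bar at the list median and a filled point for an adjusted p under 0.05. Of 130 genes, 1 is filled in hetX753 (Mccc1) and 0 in hetL1002P, where 0.508% and 0% of all genes tested were called.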

How the data were processed

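The deposited table holds raw read counts, as whole numbers, for each gene symbol in 9 libraries. Per the labels' protocols, RNA was made into libraries with the TruSeq RNA kit, version 2, which does not mark strand. Build mm10, Subread, featureCounts 1.4.6, Bowtie2 2.2.6 and TopHat2 2.0.14 are listed in the submitters' processing notes, without role or order. The annotation and strand setting were not given in the sources used here. The gene members and lists were chosen with earlier results of these data known.

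Tests used edgeR 4.0.16 in R 4.3.3: filterByExpr on genotype (12989 genes), TMM scaling, robust quasi-likelihood fitting with genotype alone as the model over the 9 libraries, and Benjamini-Hochberg adjustment over all genes tested, with an adjusted p of 0.05 as threshold. Intervals (95%) used the standard error (log2 fold change divided by the square root of F) and the fit's degrees of freedom. CPM values are relative to TMM-scaled totals, and log2 CPM used a prior count of 2. DESeq2 1.42.0 and limma 3.58.1 (voom) were alternatives. Other alternatives changed the scaling, filter, robust estimation, libraries or replicate block, and, added after seeing the data, removed each library's loess trend on exon length and GC content (GENCODE M21, matched for 95.6% of genes tested).

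Named were all 10 members, up to 4 genes per list by joint p, genes called, and the 3 genes most alike to each member. Same-genotype libraries all differed by more than sampling noise (14.3 to 65.6 for chi-square over its degrees of freedom). Replicate numbers were read from the sample titles, and their meaning is not stated there. Deviations from genotype means correlated in same-numbered WT and hetL1002P libraries at r = 0.285, 0.36 and 0.516, above the bound of 0.1 set for pairing, while pairs with hetX753 did not all reach it. The value of 0.516 was between WT 3 and hetL1002P 3, which stood apart on principal component 1. Some pairs with unlike numbers also passed the bound, such as hetL1002P 2 with WT 1 (0.198) and hetX753 1 with hetL1002P 3 (0.281). The bound alone thus does not show pairing. The labels do not say that libraries came from separate animals, so the spread that p-values rest on may be technical.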

Additional observations from a re-analysis of the deposited data

How the results depend on the processing

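Each result was recomputed under 22 alternatives. The number of members called moved from 0 to 1 in hetX753 against WT with DESeq2 and from 0 to 1 in hetL1002P against WT with the replicate block on these 2 genotypes alone, Klf9 in each case; in the other alternatives, and in all fits without 1 library (0 to 0), it was 0. The cause was not tested. With the block, no other call of a member changed. Some values that did not pass changed sign. With library totals alone Zbtb16 was 0.0927 in hetX753 against WT and Mccc1 0.054 in hetL1002P against WT. Sgk1 in hetL1002P against WT was -0.00135 with limma-voom, -0.011 with the block on 2 genotypes, -0.0489 with the length and GC trend removed and -0.0576 with both. Mt1 in hetX753 against WT was 0.0634 with the trend removed and 0.0693 with the block as well. Over the fits without 1 library, or without both WT 3 and hetL1002P 3, log2 fold changes that changed sign ran, in hetX753 against WT, from -0.17 to 0.41 for Tsc22d3, -0.11 to 0.41 for Klf15, -0.22 to 0.0736 for Sgk1, -0.19 to 0.0511 for Zbtb16, -0.41 to 0.0907 for Mt1, -0.79 to 0.23 for Mt2, -0.80 to 0.59 for Cebpd and -0.61 to 0.0757 for Fkbp5. In hetL1002P against WT they ran from -0.26 to 0.22 for Sgk1, -0.43 to 0.0979 for Klf15, -1.01 to 0.38 for Cebpd and -0.0714 to 0.35 for Zbtb16. Between the carriers they ran from -0.34 to 0.0294 for Zbtb16, -0.21 to 0.48 for Fkbp5, -0.29 to 0.13 for Sgk1, -0.0493 to 0.28 for Nr3c1, -0.13 to 0.68 for Mt2 and -0.0741 to 0.50 for Cebpd. Genes called over the whole table in hetX753 against WT numbered 66, but 625 with DESeq2, 254 on the 2 genotypes alone, 106 with the block on them, 126 with the trend removed too, 31 with library totals alone, 340 without both WT 3 and hetL1002P 3, and 0 to 669 without 1 library. In hetL1002P against WT they numbered 0, but 635 with the block on 2 genotypes, 5 with the trend removed too, 3 with DESeq2, 2 with limma-voom, no low-count filter or without both libraries, and 1 with the trend removed. Between the carriers they numbered 15, but 129 with DESeq2, 95 without both libraries, 38 with no low-count filter, 34 with the trend removed, 31 and 2 with the block in all and in 2 genotypes, 5 on the 2 genotypes alone and 0 to 19 without 1 library. In the joint test they numbered 28, but 361 with DESeq2, 194 without both libraries, 58 with no low-count filter, 48 with the trend removed, 16 with library totals alone and 0 to 209 without 1 library. Precision was lowest for Cebpd and Mt2, with within-genotype SDs of 0.81 and 0.73 on the log2 scale.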
